A study of Mus musculus with 32 samples.

Results

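Elmo1 and Prex1 encode activators of the small GTPase Rac, and their loci were examined for the ATAC-seq peaks of liver endothelial cells and of Kupffer cells, the macrophages that line the liver sinusoids. A peak belonged to a locus when its centre lay in a fixed mm9 window, chr13:20150001-20730000 for Elmo1 (580 kb) and chr2:166360001-166570000 for Prex1 (210 kb). By that rule 172 of the 229137 peaks in the lists of both cell types were members, 91 at Elmo1 and 81 at Prex1. The loci were selected on the number of Kupffer-only peaks in these same lists, so the number and class of peaks in them are given as a description, with no test. RefSeq places the genes on the same chromosomes, 13 and 2, but its table is on GRCm38.p6, so gene boundaries, exons and promoters were not placed on mm9 and the windows were taken as the loci as given.

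In ATAC-seq a transposase inserts into accessible DNA, and the study used it to ask how the clock of hepatocytes acts on other liver cells. Its 32 libraries from male C57BL/6J mice on normal chow form 8 groups of 4 replicates: endothelial cells or Kupffer cells, at ZT10 or ZT22 (hours after lights on), from WT mice or from mice with a REV-ERB a/b double knockout in adult hepatocytes. By that description the heme-binding repressors REV-ERBα and REV-ERBβ were removed in hepatocytes and not in the profiled cells, which could not be checked here. Neither the age of the mice nor the means of deletion is stated in the labels. The peaks come as 1 list per cell type, over genotypes and times, with positions alone. Effects of genotype and time were therefore not analysed here, no value has a replicate, the depth is unknown, and the identity of the cells could not be checked against marker levels. Where a list has no peak the authors called none in that cell type, which does not show that the site was closed.

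Rac switches on actin polymerisation at the leading edge of migrating cells and around particles that are being engulfed, and it also takes part in assembling the phagocyte NADPH oxidase. Guanine nucleotide exchange factors activate it by loading it with GTP. ELMO1 is the scaffold partner of the DOCK family exchange factors, and the ELMO-DOCK module acts downstream of receptors for apoptotic cells in engulfment. PREX1 is an exchange factor of a different family, activated together by the lipid PIP3 and the βγ subunits of G proteins, and is known for its role in the chemotaxis and oxidase response of myeloid cells. Kupffer cells clear particles and dying cells from the blood, and the sinusoidal endothelium beside them takes up soluble material by scavenger receptors.

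Both genes have annotated start sites in RefSeq, 2 for Elmo1 and 1 for Prex1, and the 300 bases from 250 before to 50 after each start are shown because they are the only sequence of these loci at hand. They lie on GRCm38.p6 at chr13:20090257-20090556 (plus strand) and chr13:20472740-20473039 (plus strand) for Elmo1 and at chr2:166713783-166714082 (minus strand) for Prex1. These positions cannot be compared with the mm9 positions of the peaks, and no peak was assigned to a promoter. Capitals mark matches, on either strand, to GGGCGG (the GC box) and GAGGAAGT (the ETS-type motif of the macrophage factor PU.1).
Elmo1, first start: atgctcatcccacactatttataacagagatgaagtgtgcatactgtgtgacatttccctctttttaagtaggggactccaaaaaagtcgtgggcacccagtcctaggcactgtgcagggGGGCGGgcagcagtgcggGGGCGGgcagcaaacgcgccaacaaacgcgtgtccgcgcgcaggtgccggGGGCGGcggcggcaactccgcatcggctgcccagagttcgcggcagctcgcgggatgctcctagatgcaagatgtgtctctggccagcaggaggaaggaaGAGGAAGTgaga
Elmo1, second start: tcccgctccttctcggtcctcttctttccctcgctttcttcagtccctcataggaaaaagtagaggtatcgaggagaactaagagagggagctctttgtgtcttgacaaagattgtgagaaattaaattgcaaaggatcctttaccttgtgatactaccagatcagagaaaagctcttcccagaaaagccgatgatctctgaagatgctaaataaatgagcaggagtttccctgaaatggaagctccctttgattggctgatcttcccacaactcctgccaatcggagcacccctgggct
Prex1: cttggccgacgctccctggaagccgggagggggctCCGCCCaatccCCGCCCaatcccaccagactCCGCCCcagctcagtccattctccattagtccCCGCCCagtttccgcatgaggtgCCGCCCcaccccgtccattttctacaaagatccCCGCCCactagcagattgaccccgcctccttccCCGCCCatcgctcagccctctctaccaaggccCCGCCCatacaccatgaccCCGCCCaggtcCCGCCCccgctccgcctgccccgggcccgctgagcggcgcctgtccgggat
The first Elmo1 sequence held 3 GC boxes and 1 GAGGAAGT, the latter at base 289 counted from the 5′ end, and the Prex1 sequence held 10 GC boxes and no GAGGAAGT. No match overlapped another, and the second Elmo1 sequence held neither motif. Of 32851 RefSeq promoter sequences of the same length, 35.7% held a GC box and 3.2% held GAGGAAGT. The E-box CACGTG (in 7.15% of all promoters), the AP-1 motif TGANTCA (7.81%) and the nuclear receptor half-site AGGTCA (16.3%) were also searched, on either strand, and none was found in the 3 sequences. G and C made up 60.0% of the first Elmo1 sequence, 46.0% of the second and 69.3% of the Prex1 sequence, against a median of 52.7% over all promoters. The motifs were chosen after the sequences had been seen, and a match is not a bound site.

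Kupffer peaks outnumbered endothelial peaks at both loci, and by more at Elmo1. At Elmo1 the Kupffer list had 74 peaks and the endothelial list 17, a ratio of 4.35, and at Prex1 the lists had 56 and 25 peaks, a ratio of 2.24. Over chromosomes 1 to 19 and X the ratio was 1.51. At Elmo1, 61 of the 74 Kupffer peaks were Kupffer-only, meaning that they overlapped no endothelial peak by even 1 bp. That was 82.4% (95% exact binomial interval 71.8% to 90.3%), beside 60.9% of the whole Kupffer list. At Prex1, 42 of 56 were Kupffer-only, or 75% (61.6% to 85.6%). The shares of the loci differed by less than these intervals. These intervals cover counting error alone, as if each peak were independent, and hold no variation between mice.

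Under the 1 bp rule the loci differed more in what the endothelial list held. Only 3 of 17 endothelial peaks at Elmo1 were endothelial-only, or 17.6% (3.8% to 43.4%), beside 41.7% of the whole endothelial list. At Prex1, 12 of 25 were endothelial-only, or 48.0% (27.8% to 68.7%). The intervals of these shares overlap, since they rest on few peaks, and the contrast depends on the rule. Without peaks of 151 bp (the smallest common width), endothelial-only and shared endothelial peaks numbered 3 and 6 at Elmo1 and 4 and 6 at Prex1. With an overlap of 50% of both widths they numbered 7 and 10 at Elmo1 and 14 and 11 at Prex1. With sharing up to 500 bp they numbered 2 and 15 at Elmo1 and 9 and 16 at Prex1. Per 100 kb there were 0.517 endothelial-only peaks at Elmo1 and 5.71 at Prex1, an 11-fold ratio, against 1.44 over the whole lists. That ratio rests on the 3 peaks of Elmo1. It moved with the rule, to 3.68 without peaks of 151 bp, 5.52 with an overlap of 50% of both widths and 12.4 with sharing up to 500 bp. Per 100 kb there were 10.5 Kupffer-only peaks at Elmo1 and 20 at Prex1, a ratio of 1.9, against 3.18. Prex1 was thus the denser locus in both lists, and Elmo1 the one with more Kupffer-only peaks for each endothelial-only peak, 20.3 against 3.5. These became 17.3 against 9.75 without peaks of 151 bp and 9.14 against 3.21 with the 50% overlap. With peaks overlapping across the lists joined into sites, each locus held 13 shared sites. These were 16.9% of 77 sites at Elmo1 (9.31% to 27.1%) and 19.4% of 67 at Prex1 (10.8% to 30.9%), against 30.1% over the whole lists. Endothelial-only sites were 3.9% of the sites at Elmo1 (0.811% to 10.97%) and 17.9% at Prex1 (9.61% to 29.2%), against 21.8%.

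Among all windows of equal length that tile chromosomes 1 to 19 and X, the loci ranked differently. Of 4008 windows of 580 kb, 187 or 4.67% had at least the 61 Kupffer-only peaks of Elmo1, where the median window had 15. Its 17 endothelial peaks were close to the median of 18. Of the 550 windows with at least 74 Kupffer peaks, 9 had a Kupffer-only share as high as that of Elmo1, and their median share was 60.3%. Of 9649 windows of 210 kb, 32 or 0.332% had at least the 42 Kupffer-only peaks of Prex1, where the median was 6. Its 25 endothelial peaks were also many, with 8.16% of windows reaching that number. Among the 86 windows with at least 56 Kupffer peaks, 8 had a Kupffer-only share of at least 75%. By its number of Kupffer-only peaks, Prex1 thus stood higher among windows of its length than Elmo1 did. Shares were ranked only among windows with at least as many Kupffer peaks, and numbers among all windows. Ranks by share and ranks by number are therefore not compared. Since the loci were picked for dense Kupffer-only peaks, these ranks are a description.

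**Figure D1:**
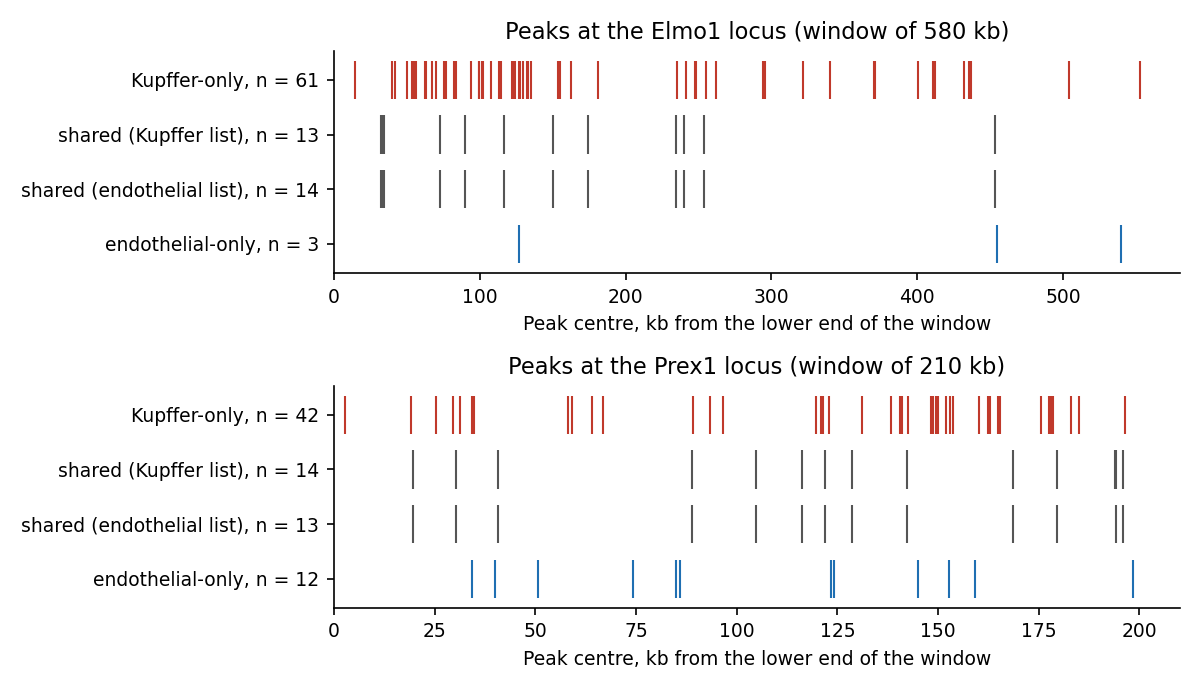
Each vertical line is a peak centre at the Elmo1 locus (upper panel) or the Prex1 locus (lower panel), placed by its distance in kb from the lower end of the window and split by class into rows. Kupffer-only peaks crowd the low-coordinate part of Elmo1, where 1 endothelial-only peak lies, while at Prex1 the 12 endothelial-only peaks are spread among the Kupffer-only peaks.

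Kupffer-only peaks gathered towards opposite ends of the windows. At Elmo1, 45 of 61 (73.8%, 60.9% to 84.2%) lay below the midpoint of the window, and at Prex1, 14 of 42 did (33.3%, 19.6% to 49.5%). Kupffer-only peaks often lay close together, so these intervals, which treat each peak as independent, are too narrow for position. The median Kupffer-only peak stood at 22.0% of the window at Elmo1 (quartiles 16.2% and 50.7%) and at 67.0% at Prex1, counted from the lower coordinate. RefSeq lists Elmo1 on the plus strand and Prex1 on the minus strand of GRCm38.p6. If the genes are oriented alike on mm9, which was not checked, the denser side was the one nearer the 5′ end of the gene at both loci. Over the 10 equal parts of the Elmo1 window, Kupffer-only peaks numbered 7, 17, 14, 1, 6, 5, 3, 6, 1 and 1 from low to high coordinates. In the same order they numbered 2, 5, 2, 2, 3, 4, 5, 12, 6 and 1 at Prex1. The fullest part held 27.9% of them at Elmo1 and 28.6% at Prex1, so the loci were about equally uneven by this measure.

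Most shared peaks lay on the same side as most Kupffer-only peaks at both loci, though at Prex1 an even split lay within the interval. At Elmo1, 12 of the 13 shared Kupffer peaks lay below the midpoint (92.3%, 64.0% to 99.8%, against 73.8% of Kupffer-only peaks), with 4 in the first of the 10 parts. The exception was the peak at chr13:20603065-20603215. At Prex1, 5 of the 14 shared Kupffer peaks lay below the midpoint (35.7%, 12.8% to 64.9%, against 33.3% of Kupffer-only peaks). Another 3 lay in the last of the 10 parts, where there was 1 Kupffer-only peak. The endothelial-only peaks of Prex1 lay evenly about the midpoint, 6 on either side. The 3 of Elmo1 stood at 21.9%, 78.4% and 93.1% of the window.

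**Figure D2:**
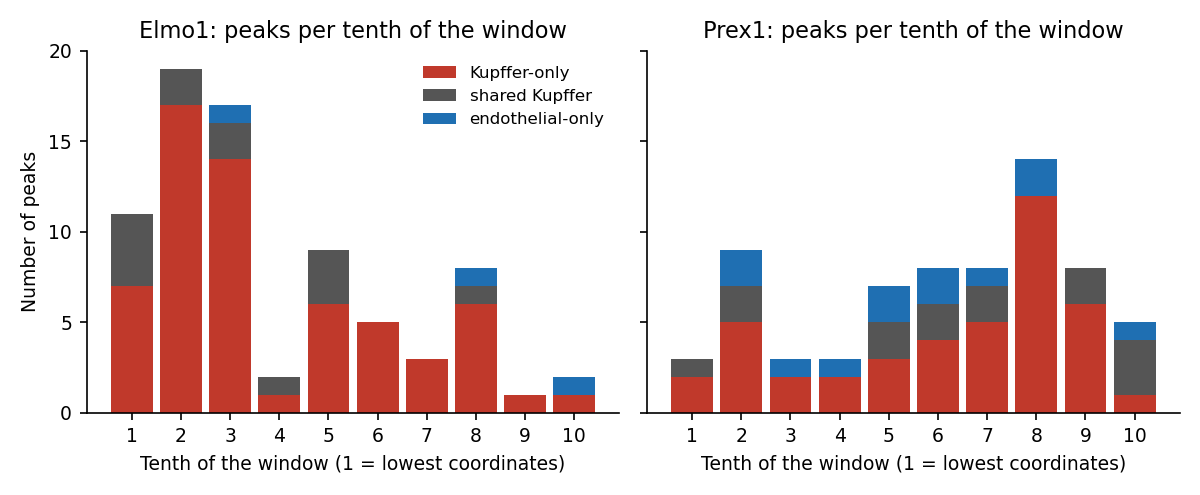
Bars give the number of peaks in each of 10 equal parts of the Elmo1 window (left) and the Prex1 window (right), stacked by class, with parts numbered from low to high coordinates. The tallest Kupffer-only segments are those of parts 2 and 3 at Elmo1, with 17 and 14 peaks, and of part 8 at Prex1, with 12.

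Each locus fell into a denser stretch and a sparser one. The largest gap between neighbouring Kupffer peaks at Elmo1, 53395 bp, ran over chr13:20330912-20384306. Below it, 48 Kupffer peaks, 39 of them Kupffer-only, lay within 167 kb at a median gap of 2165 bp. Above it, 26 Kupffer peaks, 22 of them Kupffer-only, were spread over 319 kb at a median gap of 4941 bp. The Kupffer-only share of Kupffer peaks was 81.2% below the gap and 84.6% above it. At Prex1 the largest gap was 21793 bp, at chr2:166426995-166448787, with 14 Kupffer peaks below it over 64.5 kb and 42 above it over 108 kb. The median gap was 2778 bp below it and 1479 bp above it, and the Kupffer-only share of Kupffer peaks was 78.6% and 73.8%. A gap between Kupffer peaks can hold endothelial-only peaks alone, so the class of peaks inside it follows from its choice. The endothelial list also had a gap of 23250 bp, after its peak at chr2:166410624-166410774, that overlapped the lower part of the Kupffer gap. Inside the Kupffer gap lay 3 endothelial-only peaks, at chr2:166434025-166434291, chr2:166444978-166445128 and chr2:166445681-166445940. The second of these was 151 bp wide, the smallest common width in both lists, and the others were 267 and 260 bp wide.

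Elmo1 opened, at its low-coordinate end, with a group of shared peaks. After a single Kupffer-only peak at chr13:20164068-20164267 came 4 shared Kupffer peaks and 5 shared endothelial peaks within chr13:20182343-20184533, a stretch of 2.19 kb with no restricted peak. It held the widest Kupffer peak of the locus, 463 bp at chr13:20183257-20183719, which covered 2 separate endothelial peaks of 151 and 157 bp. No other run of shared sites at either locus held as many sites. The first Kupffer-only peak beyond it lay 5409 bp further on, and opened a run of 10 Kupffer-only peaks over 29.9 kb (chr13:20189943-20219796). After a shared peak, 4 Kupffer-only peaks and another shared peak, a second long run, of 9, lay at chr13:20243592-20264559.

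The longest uninterrupted run of Kupffer-only peaks at Elmo1 lay in its sparse part. It held 16 peaks over 181 kb, from chr13:20405387-20405594 to chr13:20586614-20586795, with no endothelial peak between them. Of 34902 runs of Kupffer-only sites over chromosomes 1 to 19 and X, 160 or 0.458% were at least as long, and the longest held 59. At Prex1 the longest runs held 5 peaks, at chr2:166508094-166511992 (3.9 kb) and chr2:166520116-166525364 (5.25 kb), and 11.6% of all runs were at least that long. Without peaks of 151 bp the longest run was 15 at Elmo1 and 12 at Prex1, so the contrast depends on those narrow peaks. A Kupffer-only site was followed by another in 48 of 60 cases at Elmo1 (80.0%), in 26 of 42 at Prex1 (61.9%) and in 58.4% of cases over the whole lists. It was followed by an endothelial-only site in 2 of 60 cases at Elmo1 and in 8 of 42 at Prex1. Kupffer-only sites were 79.2% of all sites at Elmo1 and 62.7% at Prex1, close to the shares of Kupffer-only sites followed by another.

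The median gap between Kupffer peaks was shorter than in the whole list at both loci, as the choice of dense windows implies. The median gap from edge to edge was 2657 bp at Elmo1 (quartiles 658 and 6034 bp) and 1700 bp at Prex1 (386 and 4514 bp), against 3829 bp in the whole list. The 95% order-statistic intervals of these medians, 1473 to 4941 bp and 775 to 2947 bp, overlapped, and that of Elmo1 held the median of the whole list. Gaps of up to 1 kb were 31.5% of 73 at Elmo1 (21.1% to 43.4%) and 43.6% of 55 at Prex1 (30.3% to 57.7%), against 28.6% in the whole list. The gaps at Elmo1 ranged from 96 to 53395 bp and those at Prex1 from 28 to 21793 bp. The median gap between endothelial peaks was longer, 15232 bp over 16 gaps at Elmo1 and 5873 bp over 24 gaps at Prex1, against 6304 bp in the whole list. The order-statistic intervals were wide, 661 to 38265 bp at Elmo1 and 2591 to 10582 bp at Prex1. They overlapped each other and those of the Kupffer gaps, and both held the median of the whole endothelial list.

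When Kupffer-only peaks no more than 1000 bp apart were chained into clusters, more than 50% of them fell in clusters of 2 or more at both loci. The 61 peaks of Elmo1 formed 42 clusters, of which 28 were single peaks, and the 42 peaks of Prex1 formed 29, of which 20 were single. Clusters of 2 or more took in 54.1% of the Kupffer-only peaks at Elmo1 (40.8% to 66.9%) and 52.4% at Prex1 (36.4% to 68.0%), against 32.5% in the whole list. Chaining up to 2000 bp lowered the number of clusters to 35 at Elmo1 and to 19 at Prex1. The largest cluster at Elmo1 had 5 peaks in 2369 bp, at chr13:20272057-20274425. Its members were 151, 190, 227, 152 and 261 bp wide, with gaps of 179, 144, 360 and 705 bp between them. At Prex1 the largest had 4 peaks in 1916 bp, at chr2:166508094-166510009, with widths of 209, 215, 230 and 194 bp and gaps of 252, 682 and 134 bp.

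The distance from a Kupffer-only peak to the nearest endothelial peak differed between the loci. It had a median of 8291 bp at Elmo1 (quartiles 3721 and 17183 bp) and of 2192 bp at Prex1 (637 and 3707 bp), with 4802 bp over the whole lists. The order-statistic intervals of these medians were 5460 to 11477 bp and 842 to 3413 bp. They treat each peak as independent, whereas neighbouring Kupffer-only peaks often had the same nearest endothelial peak. The intervals are therefore too narrow, and the difference is given as a description of windows chosen on these same lists. At Elmo1, 3 of 61 Kupffer-only peaks had an endothelial peak no more than 1 kb away (4.92%, 1.03% to 13.7%). At Prex1, 17 of 42 had one (40.5%, 25.6% to 56.7%), against 22.5% over the whole list. Within 10 kb the shares were 60.7% at Elmo1 and 97.6% at Prex1, against 68.2%. Endothelial peaks were also fewer per 100 kb at Elmo1, 2.93 against 11.9 at Prex1, and the part of that density in the distances was not tested. The Kupffer-only peak of Elmo1 farthest from any endothelial peak, at chr13:20490360-20490571, had none within 86531 bp.

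**Figure D3:**
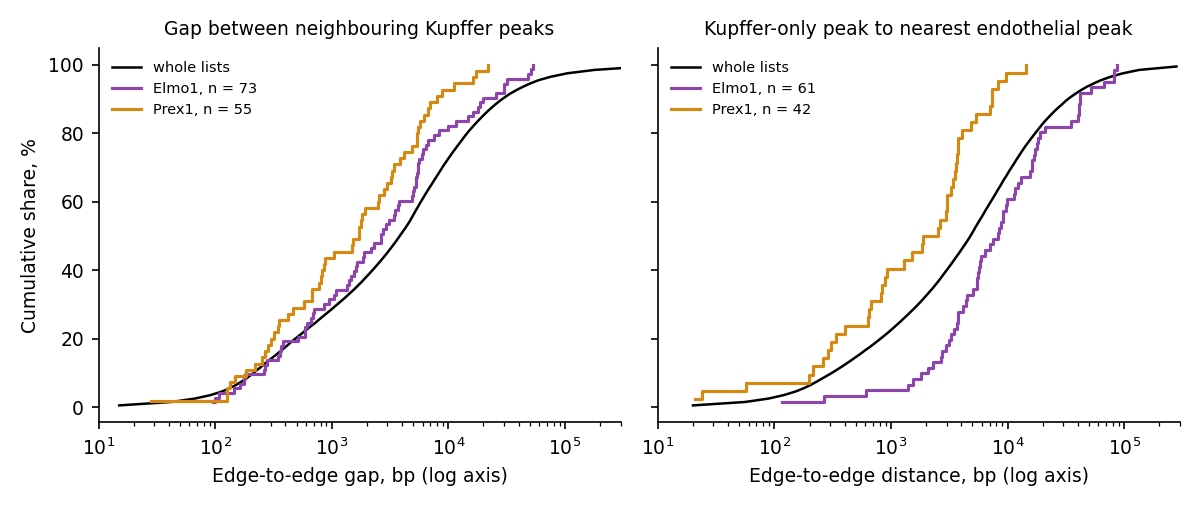
Cumulative curves give the share of gaps between neighbouring Kupffer peaks (left) and of distances from Kupffer-only peaks to the nearest endothelial peak (right) against size in bp on log axes, for Elmo1, Prex1 and the whole lists on chromosomes 1 to 19 and X. In the right panel the loci fall on opposite sides of the whole lists at the median and both quartiles, with medians of 8291 bp at Elmo1 and 2192 bp at Prex1.

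Several endothelial-only peaks stood beside a Kupffer-only peak. At Elmo1 the endothelial-only peak at chr13:20276733-20276952, 220 bp wide, lay 117 bp from the Kupffer-only peak at chr13:20277070-20277298, within the dense stretch. The other 2, at chr13:20604410-20604560 and chr13:20689742-20689892, were 151 bp wide and lay 1194 and 12996 bp from the nearest Kupffer peak. At Prex1 all 12 endothelial-only peaks had a Kupffer peak within 10 kb, against 70.6% of all endothelial-only peaks. That was nearly given by the choice of a window dense in Kupffer-only peaks. Its largest gap between Kupffer peaks was 21793 bp, so almost no site between them could lie more than 10 kb from one. Within 1 kb 5 of 12 had one (41.7%, 15.2% to 72.3%), an interval that holds the 25.9% of the whole list. The closest pair was 24 bp apart, with the endothelial-only peak at chr2:166394323-166394473 and a Kupffer-only peak at chr2:166394148-166394298, and a second Kupffer-only peak lay 290 bp beyond it. At chr2:166512625-166512804 an endothelial-only peak lay 57 bp from the Kupffer-only peak at chr2:166512862-166513051. The peak at chr2:166483322-166483545, 224 bp wide, lay 339 bp from a Kupffer-only peak. Pairs this close are restricted only because the intervals do not touch, so the shares depend on that rule. If a distance of 500 bp or less also counted as sharing, 57.1% of Kupffer peaks at Prex1 and 79.7% at Elmo1 were Kupffer-only, beside 52.0% in the whole list. If peaks of 151 bp were left out, the shares were 86.7% at Prex1 and 89.7% at Elmo1, beside 66.2%, and endothelial-only peaks numbered 4 at Prex1 and 3 at Elmo1 (43.0% of the whole endothelial list). If both peaks had to overlap by 50% of their width or more, endothelial-only peaks numbered 7 at Elmo1 and 14 at Prex1 (48.0% of the whole list).

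Kupffer-only peaks had ordinary widths. Their median was 200 bp at Elmo1 (quartiles 171 and 219 bp) and 192 bp at Prex1 (162 and 226 bp), against 194 bp in the whole list. The widest at Elmo1 were 295 bp (chr13:20225640-20225934), 282 bp (chr13:20217015-20217296) and 277 bp (chr13:20654199-20654475). At Prex1 3 Kupffer-only peaks were far wider than the rest, 409 bp (chr2:166524604-166525012), 395 bp (chr2:166500245-166500639) and 393 bp (chr2:166500942-166501334), and the next was 286 bp. The latter 2 of these 3 were neighbours 302 bp apart. Of Kupffer peaks over 250 bp wide, 6 of 10 at Elmo1 and 7 of 11 at Prex1 were Kupffer-only, against 9763 of 21298 in the whole list. Among Kupffer peaks of all widths the Kupffer-only shares were higher, 82.4% at Elmo1 and 75% at Prex1.

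Shared Kupffer peaks had a median width of 196 bp at Elmo1 and 205 bp at Prex1, against 207 bp in the whole list. After the 463 bp peak, the widest at Elmo1 were 274 bp (chr13:20300105-20300378) and 252 bp (chr13:20403587-20403838). At Prex1 the widest were 390 bp (chr2:166539300-166539689), 323 bp (chr2:166555770-166556092) and 278 bp (chr2:166390075-166390352). Endothelial peaks had a median width of 157 bp at Elmo1 (order-statistic interval 151 to 218 bp) and of 151 bp at Prex1 (151 to 180 bp), against 198 bp in the whole endothelial list. Over 250 bp wide were 0 of 17 at Elmo1 (which allows up to 19.5%) and 5 of 25 at Prex1 (20%), against 22.1%. Peaks of 151 bp were 8 of 17 at Elmo1 (47.1%, 23.0% to 72.2%) and 15 of 25 at Prex1 (60.0%, 38.7% to 78.9%), against 34.5%. Among endothelial-only peaks, 2 of 3 at Elmo1 and 8 of 12 at Prex1 were 151 bp wide, against 44.5% overall. The widest endothelial peak of either locus, 409 bp at chr2:166464515-166464923, was shared with a Kupffer peak of 187 bp.

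Where the lists shared a site, the Kupffer peak was often the wider at Prex1. Of 14 overlapping pairs there, the Kupffer peak was wider in 11 and the endothelial peak in 2, and the median difference was 46 bp. In most of these 11 the endothelial peak was 151 bp wide, the lowest width in the endothelial list and among shared Kupffer peaks. Such a peak could not be the wider of its pair. The endothelial peak at chr2:166553975-166554125 also entered 2 of the 14 pairs. At Elmo1 the Kupffer peak was wider in 7 of 14 pairs and the endothelial in 5, with a median difference of 15 bp. The Kupffer peak of 463 bp entered 2 of those 7 pairs. Over the whole lists the Kupffer peak was wider in 41.8% of pairs, with a median difference of 0 bp. The centres of a pair were as close as elsewhere, at a median of 23.8 bp at Elmo1 and 24.0 bp at Prex1, against 25.0 bp. Peak width depends on how libraries were merged and how deeply they were sequenced, neither of which is known, and their part in these widths was not tested.

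**Figure D4:**
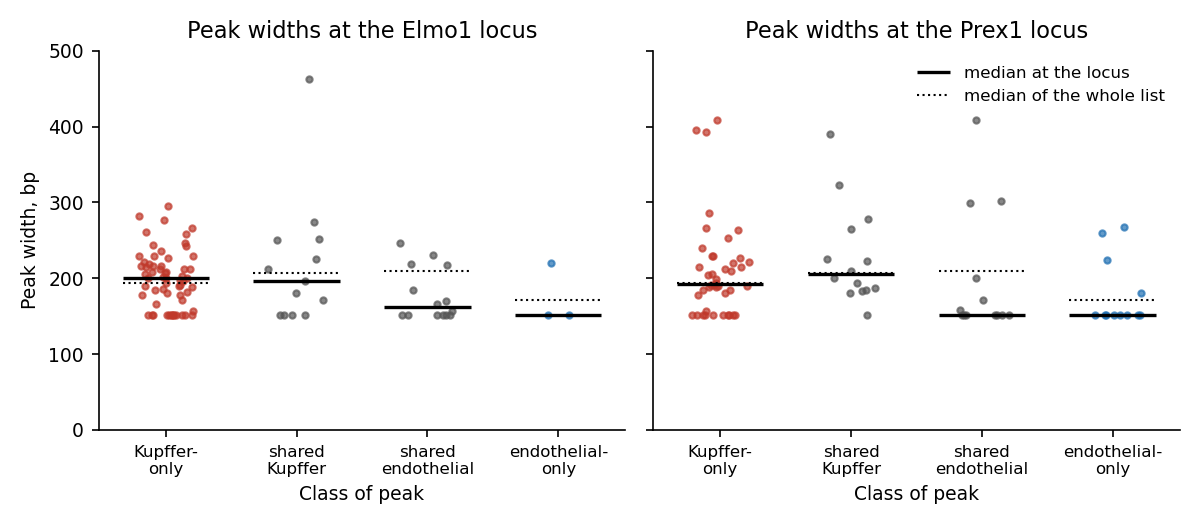
Points are single peaks at the Elmo1 locus (left) and the Prex1 locus (right) by class, with width in bp on the vertical axis and horizontal scatter added for display. Solid bars are medians at the locus and dotted bars those of the whole list, and the medians of shared endothelial peaks lie below that of the whole list at both loci, with single peaks on either side of it, while those of Kupffer-only peaks lie close to it.

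Kupffer-only peaks went on beyond both windows, at lower density when counted over stretches as long as the windows. Right beside Prex1 the density was not lower. Widening the windows by 10% at each end raised Kupffer-only peaks from 42 to 54 at Prex1 and from 61 to 63 at Elmo1. In stretches of equal length on either side, there were 31 Kupffer-only peaks below Elmo1 and 27 above it, against 61 within, and 23 below and 30 above Prex1, against 42 within. The stretch below Elmo1 held almost no endothelial peaks, 2 in 580 kb, so that 31 of its 32 Kupffer peaks were Kupffer-only (96.9%, 83.8% to 99.9%). The endothelial peak nearest the window on that side was 359 kb away from it. Above Elmo1 the share was 61.4% (45.5% to 75.6%), near the 60.9% of the whole list, and beside Prex1 it was 76.7% below and 78.9% above, much as within. On GRCm38.p6 the coding genes next to Elmo1 in RefSeq are Gpr141, an orphan G protein-coupled receptor gene, on the low side and Aoah, which encodes a lipase that inactivates bacterial lipopolysaccharide, on the high side. Those next to Prex1 are the predicted gene Gm30733 and Trp53rkb. Which of them lie in the flanking stretches on mm9 was not determined.

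The window edges cut through no dense group at Elmo1. The outermost Kupffer peaks inside it lay 14.2 kb from the lower and 27.0 kb from the upper edge, and the nearest outside lay 8.25 and 23.1 kb from them. At Prex1 the outermost Kupffer peaks inside lay 2.66 and 13.7 kb from the edges. The upper edge of Prex1 fell just short of further peaks, with a Kupffer-only peak of 199 bp 0.216 kb and an endothelial-only peak of 151 bp 0.454 kb outside it.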

How the data were processed

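Open chromatin was profiled by ATAC-seq in 32 libraries of endothelial and Kupffer cells. The authors deposited 1 peak list per cell type with 3 columns and no header (chromosome, start and end in bp). Per the submitters' processing notes, Bowtie, HOMER and the build mm9 were used, and no version is named. How peaks were thresholded, short fragments chosen, transposase offsets treated and libraries merged is not stated in these sources. Depth is therefore unknown, and no mean, SD or test across libraries could be made.

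Starts were read as 0-based and are printed counted from 1. Sharing meant an overlap of 1 bp or more across the lists. Overlaps were computed with NumPy 2.4.6 and pandas 2.3.3 in Python 3.11.15, tested on simulated data, and gave the same 53324 endothelial and 53800 Kupffer shared peaks as bedtools 2.31.1. Shares carry 95% Clopper-Pearson (exact binomial) intervals computed in SciPy 1.17.1, and medians carry intervals from order statistics. Values of the whole lists are over chromosomes 1 to 19 and X, except the restricted shares under each sharing rule, which cover every peak. Figures used Matplotlib 3.10.9.

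The loci, windows and measures were chosen with earlier results of these data known. Peaks named by position are the endothelial-only peaks (at Prex1 the widest), the widest 3 Kupffer-only and shared Kupffer peaks, the ends of the longest runs, the largest clusters and the peaks at the window edges. Other named peaks, the division at the largest gap and the promoter motifs were chosen after the values were seen. A list of other Rac regulators was not placed, since no mm9 annotation was used.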

Additional observations from a re-analysis of the deposited data

How the results depend on the processing

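Of 120 alternative values for the class counts, shares, gaps, widths, positions, clusters and runs of the 2 loci, 105 stayed within the interval of the reported value or within 1.5 times a count, and 15 moved further. Without peaks of 151 bp, shared Kupffer peaks fell to 6 at Elmo1 and 6 at Prex1, shared endothelial peaks to 6 and 6, and endothelial-only peaks at Prex1 to 4. In that setting the Kupffer-only share at Prex1 was 86.7% and its longest run of Kupffer-only peaks 12, since fewer endothelial peaks interrupted it; the whole Kupffer list then had 66.2% Kupffer-only peaks. If a distance of 500 bp or less also counted as sharing, Prex1 had 24 shared Kupffer peaks and a Kupffer-only share of 57.1%. With peaks of a list within 500 bp joined, Prex1 had 26 Kupffer-only peaks, and the median width of its shared Kupffer peaks was 454 bp, by construction of the joining. Requiring 50% of both widths to overlap gave 7 endothelial-only peaks at Elmo1. Narrowing the window by 10% at each end left 9 shared endothelial peaks at Elmo1 and moved the median position of its Kupffer-only peaks to 16.2% of the narrower window. Chaining over 2000 bp gave 19 clusters at Prex1. The side of the window on which Kupffer-only peaks were denser was the same at each locus in the 4 settings run for position. No paired analysis was possible because each list pools its libraries, and leaving out a replicate was not possible either. The lists carry no score, so no stricter peak threshold was run. Depth is unknown, and a site may lack a peak for that reason alone.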
